A study of Mus musculus with 16 samples.

Results

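The genes described here encode subunits of potassium channels in mouse hypothalamus. They were taken by name: every non-control probe whose gene name in the scanner files starts with Kcn, of which there were 148 probes for 98 genes. Members were then selected on a measured value, detection: a probe stayed in where the scanner's flag put it well above background on 8 or more of the 16 arrays. This left 110 probes for 81 genes, out of 24362 genes tested in all. The 81 include 77 genes that encode a subunit and 4 transcripts that share the prefix without being one (Kcnd3os, Kcnmb4os2, Kcnq1ot1 and Kcnrg).

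The 16 animals, 1 per array, were 8 control mice and 8 KO chimeras. The KO chimeras were C57BL/6J mice given 950 Rad and then marrow of the strain Adrb1tm1BkkAdrb2tm1Bkk/J, which lacks the beta-1 and beta-2 adrenergic receptors. The marrow went in once, behind the eye, at 1:4 (knockout to C57BL/6J), and hypothalamus was taken 2 to 3 months later. The labels write the same treatment and the same irradiated recipient strain for the control mice, but give a marrow strain for the KO chimeras alone, so what the control mice received is not settled. Cells of a recipient's brain that do not come from marrow carry its own receptor genes. Age, sex and whether chimeras shared a donor are not given in the sources used here. The study's title asks what loss of sympathetic drive does to bone, hypothalamus and gut.

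Potassium channels let potassium leave or enter a cell along its gradient and so hold the resting potential and end each action potential. Voltage-gated pores open on depolarisation, calcium-activated pores couple firing to calcium entry, inward rectifiers hold the membrane near rest, and tandem-pore-domain channels carry the background leak. Auxiliary subunits change the surface number and the gating of these pores. In hypothalamus, potassium channels shape the firing of neuroendocrine cells, and channels built from Kcnj11 or Kcnj8 with sulfonylurea receptors tie firing or vessel tone to ATP.

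Where a gene had several probes, its brightest probe on average was used for its level, so the stretch of transcript that this probe reads matters. The following lines give 30 of the 60 bases of the probes on which the results turn, 5′ to 3′ as printed in the scanner files, with the hexamer AATAAA, the polyadenylation signal near the 3′ end of many transcripts, in capitals where the probe holds it. Positions are of the whole probe in mm9, and its place in an exon or UTR was not analysed here.
Kcna1 (chr6:126586524-126586583, minus strand): gcgcatagttttcatctatgcaattttact
Kcnh2 (chr5:23825407-23825466, minus strand): atgactatgaatAATAAAtaattatcctga
Kcnmb2 (chr3:32098621-32098680, plus strand): cttttcataagcaAATAAAtccctagggtg
Kcnma1 (chr14:24111708-24111767, minus strand): agagcgtggtttgtttctttgtctttcaca
Kcnip4, probe used (chr5:48780889-48780948, minus strand): actgtctgcaacAATAAAtcaggtatctat
Kcnip4, other probe (chr5:48782161-48787268, minus strand): tgagttcattgaaagttgccaaaaagatga
Kcnc1, probe used (chr7:53693712-53693771, plus strand): attcgagcatgaAATAAAttttgtaacatg
Kcnc1, middle probe (chr7:53688622-53688681, plus strand): gccttgccgtcttgtacgacagactttttt
Kcnc1, upstream probe (chr7:53682767-53682826, plus strand): tgtctggagactcacgagcgcttcaacccc
The hexamer was searched on the probe strand. It lay in the probes of Kcnh2, Kcnmb2, Kcnip4 and Kcnc1, in 12 of the 81 probes used for potassium channel genes (14.8%) and in 3277 of the 24362 probes used for all genes (13.5%). The second Kcnip4 probe spans 5108 bases of genome and therefore crosses at least 1 splice junction.

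In KO chimeras 7 potassium channel genes fell and 0 rose (limma, adjusted p under 0.05 over all genes; 3 were higher at an unadjusted p under 0.05). Over all genes 3.80% were called, 2.77% lower and 1.03% higher, against 8.64% of the 81 channel genes, all lower. The 7 were the voltage-gated pores Kcna1, Kcnc1 and Kcnh2, the calcium-activated pores Kcnma1 and Kcnn2, and the auxiliary subunits Kcnmb2 and Kcnip4. Of 13 inward rectifiers and 12 tandem-pore-domain genes 0 passed in limma, and 1 of each stood at an unadjusted p under 0.05. The falls were small, between 1.24-fold for Kcnip4 and 1.83-fold for Kcnmb2. The log2 fold change (KO chimera minus control) had a median of −0.09 over the 81 genes and 0.00 over all genes, and 52 of the 81 were negative. At an unadjusted p under 0.05, 22 of 81 (27.2%) stood against 20.7% of all genes, and 19 of the 22 were lower. The groups did not overlap for 1 of the 81 (Kcna1), a share of 1.23% against 0.965% of all genes.

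**Figure D1:**
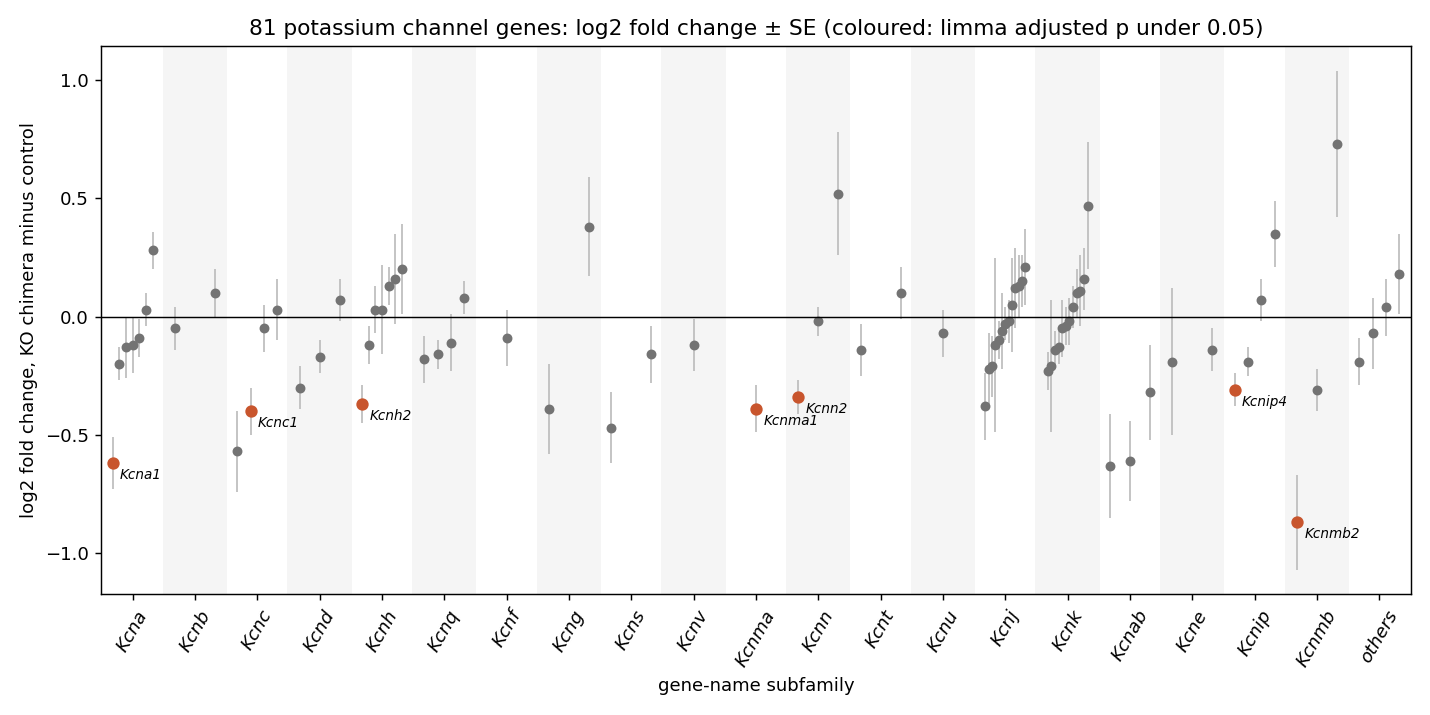
Log2 fold change ± SE (KO chimera minus control, vertical axis) of the 81 potassium channel genes, by gene-name subfamily (horizontal axis). The 7 coloured points passed limma's adjusted p under 0.05 and all lie below 0, from −0.31 (Kcnip4) to −0.87 (Kcnmb2), while Kcnmb1 at 0.73 is the highest point and did not pass.

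Of the 59305 non-control spots per array, 27276 to 43248 were well above background, the fewest in KO chimera replicate 1 (the next array had 34935). Without that animal 5 of the 7 genes passed, and Kcnc1 (−0.38, limma adjusted p = 0.0648) and Kcnip4 (−0.30, adjusted p = 0.0506) did not. Across the arrays, 63 of the 81 genes were so on all 16 arrays, and no member spot was saturated. Against the tissue label, 13 of 14 hypothalamic markers were measured and 12 of them were well above background on all 16 arrays (Otp did not pass the detection rule). Of 13 thalamus markers 12 were lower in KO chimeras and 2 passed (Prkcd −1.87 ± 0.49, Adarb1 −0.62 ± 0.15, SE); their mean level relative to each gene's mean ran from −0.88 to 1.28 in control and from −1.33 to 0.31 in KO chimeras. Of 12 oligodendrocyte markers 10 were lower and 4 passed (Mal, Mobp, Cldn11 and Mog), with a mean level of −0.14 to 0.46 in control and −0.32 to 0.06 in KO chimeras. Lower markers also passed for neurons (1 of 11), microglia (2 of 11), astrocytes (1 of 9) and erythrocytes (1 of 5). None passed among hypothalamus, vessel, ependyma, choroid plexus or cortex, hippocampus and striatum markers. Over all genes 2.77% were called lower and 1.03% higher. The 6 ependyma markers were all higher, with a median of 0.47 and 4 at an unadjusted p under 0.05; their mean level was −1.47 to 0.33 in control and −0.32 to 0.76 in KO chimeras. In whole tissue, fewer cells of a type and less RNA per cell cannot be told apart.

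**Figure D2:**
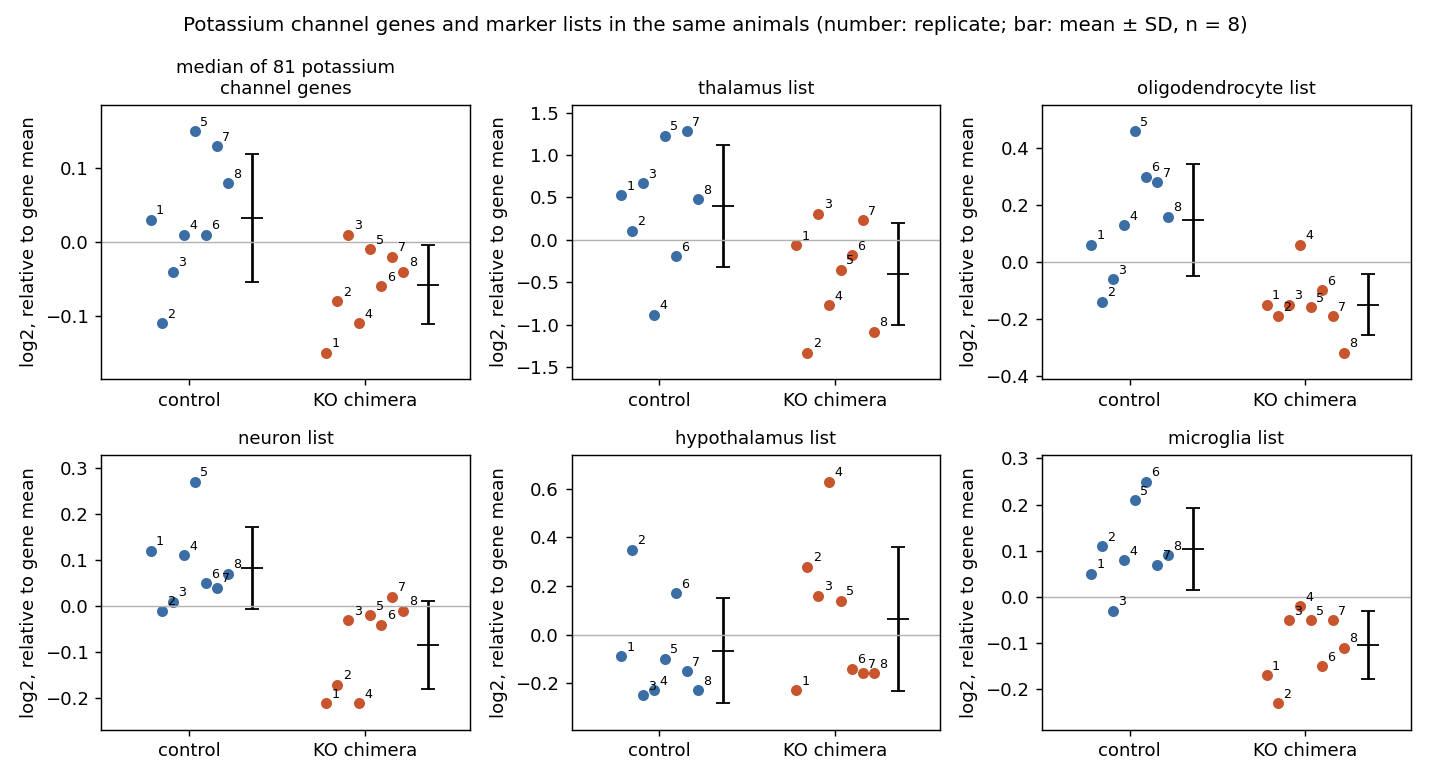
Median level of the 81 potassium channel genes and mean level of 5 marker lists in each animal (vertical axis: log2 signal relative to each gene's mean over 16 arrays; numbers are replicates; bars are mean ± SD, n = 8). Control replicates 5 and 7 lie highest for the channel genes (0.15 and 0.13) and for the thalamus list (1.23 and 1.28). Other animals differ: control replicate 3 is at −0.04 for the channel genes and 0.67 for the thalamus list, and control replicate 4 at 0.01 and −0.88. A link between channel genes and list was not tested.

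Of the voltage-gated pores, Kcna1, which encodes a delayed rectifier of axons and is mutated in episodic ataxia, fell furthest. Its log2 signal, set relative to the 75th percentile of the array, was 2.13 at the lowest, 2.34 at the median and 3.07 at the highest in control mice. In KO chimeras it was 1.65, 1.83 and 2.01. Every KO chimera lay below every control mouse, and control replicate 5 was the highest of all. The means were 2.44 ± 0.30 and 1.82 ± 0.11 (SD, n = 8 each), a log2 fold change of −0.62 ± 0.11 (SE; limma adjusted p = 0.0124), 1.53-fold lower. Within the 5 slides that held both groups the difference was −0.35 to −1.39, and on each of the 2 scan days it was −0.65 and −0.59. Kcna1 kept its call when any animal was left out (adjusted p at most 0.0292) and with the slide as a block (adjusted p = 0.0444).

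The other Kcna genes encode pores that can join Kcna1 in mixed channels, and none of the 6 passed. Kcna2, its partner in axons, measured −0.62, −0.26 and 0.22 (lowest, median and highest) in control and −0.55, −0.32 and −0.04 in KO chimeras. All KO chimeras lay inside the control range, and the log2 fold change was −0.13 ± 0.13 (limma adjusted p = 0.594). Kcna3, a pore also found in immune cells, was at 0.28 ± 0.08 (limma adjusted p = 0.0703), and it passed with the slide as a block.

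Kcnc1 encodes a fast delayed rectifier of neurons that fire at high rates. In control mice its most downstream probe measured 1.75, 2.35 and 2.64, and in KO chimeras 1.72, 1.90 and 2.03. The KO chimeras lay within a narrow band, and 7 of the 8 control mice were above all of them, with control replicate 2 among the KO chimeras. Kcnc1 differed by −0.40 ± 0.10 in log2 units (SE; limma adjusted p = 0.0397). This call was lost when any of 14 of the 16 animals was left out, all but control replicates 2 and 3, with adjusted p of 0.0537 to 0.0794. The middle probe, 5090 bases upstream, gave −0.43 ± 0.12, and the upstream probe, 5855 bases further, gave −0.03 ± 0.14. Kcnc2, a pore of the same kind chosen here after its value was seen, was at −0.57 ± 0.17 and did not pass (limma adjusted p = 0.074).

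Kcnh2 encodes the pore of the rapid delayed rectifier of heart, which also limits firing in neurons. It measured 0.10, 0.31 and 0.52 in control mice and −0.35, −0.04 and 0.15 in KO chimeras. Only KO chimera replicate 3 lay above the lowest control mouse, replicate 8. Kcnh2 differed by −0.37 ± 0.08 in log2 units (SE; limma adjusted p = 0.0193), with a negative difference in all 5 slides, from −0.14 to −0.48. It passed with the slide as a block (adjusted p = 0.0415) and without any animal in turn (adjusted p at most 0.0423). The other 6 Kcnh genes did not pass, and 5 of them were positive, up to 0.20 for Kcnh8.

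The Kcnd genes carry the transient A-type current that delays firing. Kcnd2 measured 2.56, 2.83 and 3.11 in control and 2.29, 2.53 and 2.77 in KO chimeras. The groups overlapped, and the log2 fold change of −0.30 ± 0.09 did not pass (limma adjusted p = 0.0644). Kcnd3 was at −0.17 ± 0.07 (adjusted p = 0.147) and Kcnd1 at 0.07 ± 0.09 (adjusted p = 0.666).

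The Kcnq genes carry the M-current, a slow brake on firing that neurotransmitters close. None of the 4 measured passed (limma; 1 stood at an unadjusted p under 0.05). Kcnq3 measured −2.85, −2.50 and −1.99 in control and −2.66, −2.59 and −2.33 in KO chimeras. The KO chimeras lay wholly inside the control range, and the log2 fold change was −0.11 ± 0.12 (limma adjusted p = 0.646). The 2 Kcnb genes and the 6 electrically silent modifiers of the Kcnf, Kcng, Kcns and Kcnv families did not pass. The lowest of the modifiers was Kcns2 at −0.47 ± 0.15 (limma adjusted p = 0.092), named after its value was seen.

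**Figure D3:**
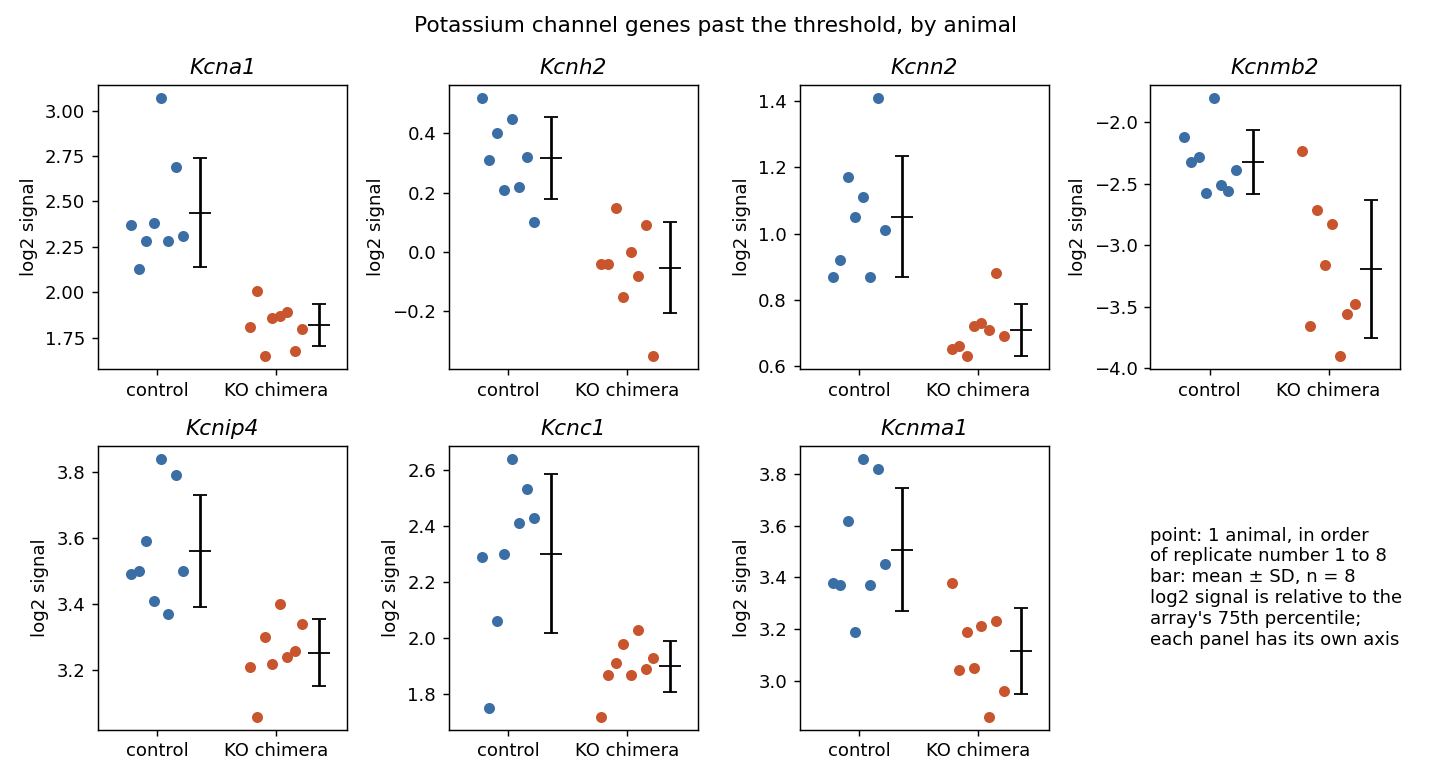
Log2 signal, relative to the 75th percentile of the array (vertical axes, each panel its own) of the 7 potassium channel genes that passed, in 8 control mice and 8 KO chimeras (points, in replicate order; bars are mean ± SD, n = 8). Only Kcna1 shows no overlap, with the highest KO chimera at 2.01 and the lowest control mouse at 2.13.

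Of the 7 pores of the Kcnma, Kcnn, Kcnt and Kcnu families, 2 fell, where 2.77% of all genes were called lower. Kcnma1, the pore of the large-conductance channel that speeds repolarisation, measured 3.19, 3.41 and 3.86 in control and 2.86, 3.12 and 3.38 in KO chimeras. KO chimera replicate 1 lay well among the control mice, and KO chimera replicates 5 and 7 (3.21 and 3.23) lay just above the lowest of them. Kcnma1 differed by −0.39 ± 0.10 in log2 units (SE; limma adjusted p = 0.0418), and leaving out any of 12 animals took the call away (adjusted p 0.0504 to 0.0815): control replicates 1, 2, 3, 5 and 7 and every KO chimera but replicate 1. Kcnn2, a small-conductance channel behind the after-hyperpolarisation, measured 0.87, 1.03 and 1.41 in control and 0.63, 0.70 and 0.88 in KO chimeras. KO chimera replicate 7 was the only KO chimera to reach the control range. Kcnn2 differed by −0.34 ± 0.07 in log2 units (SE; limma adjusted p = 0.0216), negative in all 5 slides, and it held without any animal in turn (adjusted p at most 0.0458). The call was lost under a slide block (−0.31, adjusted p = 0.0662) and with normexp background correction (−0.33, adjusted p = 0.0519). Kcnn3 was at −0.02 ± 0.06 (adjusted p = 0.87), and Kcnn4, at 0.52 ± 0.26, did not pass (limma adjusted p = 0.278). The Kcnn4 probe was dim, well above background on 6 control and 6 KO chimera arrays. With normexp background correction Kcnn4 was at 0.22.

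Of the 13 inward rectifiers none passed, and their log2 fold changes ran from −0.38 (Kcnj12) to 0.21 (Kcnj14), with a median of −0.03. Kcnj12, a strong rectifier, measured 0.48, 0.98 and 1.35 in control and 0.17, 0.60 and 0.88 in KO chimeras (log2 fold change −0.38 ± 0.14, limma adjusted p = 0.141). Kcnj10, the rectifier by which astrocytes clear potassium, measured 4.70, 4.93 and 5.24 in control and 4.73, 4.84 and 4.99 in KO chimeras. The KO chimeras lay inside the control range and the log2 fold change was −0.10 ± 0.08 (adjusted p = 0.52). Kcnj3 and Kcnj6 form the channels that G-protein-coupled receptors open. Kcnj3 measured −2.33, −1.64 and −1.03 in control and −2.03, −1.67 and −1.46 in KO chimeras (log2 fold change −0.06 ± 0.16, adjusted p = 0.873). Kcnj6 measured −2.88, −2.69 and −2.38 against −2.96, −2.59 and −2.04 (0.15 ± 0.11, adjusted p = 0.479). For Kcnj3 the KO chimeras lay inside the wider control range, and for Kcnj6 the control mice lay inside the wider range of the KO chimeras.

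The ATP-sensitive pores did not pass either. Kcnj11, the pore by which glucose-sensing neurons follow ATP, measured −2.21, −2.04 and −1.75 in control and −2.45, −1.82 and −1.33 in KO chimeras, a log2 fold change of 0.13 ± 0.13 (limma adjusted p = 0.618). Kcnj8, the pore of the vascular form, was well above background on 7 control and 6 KO chimera arrays. It measured −4.15, −3.84 and −3.47 against −4.47, −3.87 and −2.76 (0.05 ± 0.20, adjusted p = 0.914), and KO chimera replicate 1 held the highest value. Scaling changed its sign: with the array's median subtracted, with quantile normalization and in the deposited value table it was −0.08, −0.12 and −0.13. Their sulfonylurea receptor partners Abcc8 (−0.15 ± 0.08) and Abcc9 (0.14 ± 0.13) did not pass.

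Tandem-pore-domain genes, which carry the leak current, were at −0.23 (Kcnk1) to 0.47 (Kcnk7), with a median of −0.03. The Kcnk7 probe was dim, well above background on 5 control and 7 KO chimera arrays. With normexp background correction Kcnk7 was at 0.18. Kcnk1 measured 1.30, 1.63 and 1.87 in control and 1.22, 1.35 and 1.64 in KO chimeras, and its log2 fold change of −0.23 ± 0.08 did not pass (limma adjusted p = 0.106). Kcnk2, a channel opened by stretch and lipids, measured −2.10, −1.78 and −1.42 against −1.93, −1.73 and −1.39. Its groups overlapped, with KO chimeras 5 and 8 just above the highest control mouse and control replicates 3 and 7 below every KO chimera. The log2 fold change was 0.10 ± 0.10 (limma adjusted p = 0.616), and it turned to −0.03 with the array's median subtracted.

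Auxiliary subunits had the lowest median of the classes, −0.25 over 12 genes. Of the 12, 2 passed and 8 stood at an unadjusted p under 0.05, against 3.80% and 20.7% of all genes (limma). Of these 8, 6 were lower and 2 higher (Kcnip2 at 0.35 ± 0.14 and Kcnmb1, below). The class was not tested as a set. Kcnmb2, a beta subunit that inactivates the Kcnma1 channel, had the largest fall. It measured −2.57, −2.35 and −1.80 in control and −3.90, −3.32 and −2.23 in KO chimeras. KO chimera replicate 1 lay among the control mice and the others below them all. The fall was −0.87 ± 0.20 in log2 units (SE; limma adjusted p = 0.0309), with the opposite sign, 0.16, on the slide that held KO chimera replicate 1 and control replicate 8. It did not pass when control replicate 1 or 5, or KO chimera replicate 2, 6, 7 or 8, was left out (adjusted p 0.0512 to 0.0663). With normexp background correction it was −0.31 and did not pass (adjusted p = 0.377). A second Kcnmb2 probe was well above background on 5 control and 1 KO chimera arrays, under the detection rule, and was not tested. Kcnmb4, the beta subunit typical of neurons, was at −0.31 ± 0.09 (adjusted p = 0.0717), and Kcnmb1, typical of smooth muscle, at 0.73 ± 0.31 (adjusted p = 0.186). Both were named after their values were seen. The Kcnmb1 probe was dim, well above background on 6 control and 7 KO chimera arrays. With normexp background correction Kcnmb1 was at 0.21.

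Kcnip4 encodes a calcium-binding subunit of A-type channels. It measured 3.37, 3.50 and 3.84 in control mice and 3.06, 3.25 and 3.40 in KO chimeras. KO chimera replicate 5 alone reached above the lowest control mouse. Kcnip4 differed by −0.31 ± 0.07 in log2 units (SE; limma adjusted p = 0.0345), and the call was lost (adjusted p 0.0506 to 0.0667) on leaving out control replicate 3, 5 or 7, or KO chimera replicate 1, 2, 4, 6 or 7. Kcnip3, which also acts as a calcium-dependent repressor of transcription, measured 3.85, 4.02 and 4.16 in control and 3.54, 3.87 and 3.90 in KO chimeras, and did not pass (−0.19 ± 0.06, adjusted p = 0.0882). Dpp10, the membrane partner of the same A-type channels, fell (−0.26 ± 0.07, limma adjusted p = 0.0498), and Dpp6 was at −0.06 ± 0.05.

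The Kcnab genes encode beta subunits of Kcna channels. Kcnab1, which speeds their inactivation, measured 1.99, 2.31 and 3.36 in control and 1.51, 1.78 and 2.26 in KO chimeras. Control replicate 3 stood far above the rest. The log2 fold change of −0.61 ± 0.17 did not pass (limma adjusted p = 0.0543); without control replicate 3 it was −0.47 and passed (adjusted p = 0.0497), as it did without control replicate 4 or KO chimera replicate 8 (−0.67 each, adjusted p = 0.0479 and 0.0454). Kcnab2 was at −0.63 ± 0.22 and Kcnab3 at −0.32 ± 0.20, and neither passed. The Kcnab2 probe was dim, well above background on 6 control and 4 KO chimera arrays. With normexp background correction Kcnab2 was at −0.01.

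Other genes had several probes too. Of 23 genes with at least 2 probes kept, 14 (60.9%) had probes of opposite sign, against 45.6% of the 7226 such genes in all, and in 10 of the 14 no probe stood at an unadjusted p under 0.05. Differences between probes were not tested. Kcnd1 was at 0.07 ± 0.09 by the probe used, at −0.06 ± 0.17 by the most upstream probe and at −0.34 ± 0.08 by the most downstream one, the last with an adjusted p of 0.0416 over all probes (limma). Kcnd3 was at −0.17 ± 0.07 and 0.18 ± 0.21, and Kcnip3 at −0.19 ± 0.06 and 0.00 ± 0.14. Kcnip4 was at −0.31 ± 0.08 by the probe used and −0.07 ± 0.13 by the probe across a splice junction. For Kcnma1 the 4 probes gave −0.39 ± 0.10, −0.34 ± 0.12, −0.24 ± 0.13 and −0.06 ± 0.11, in order from the most downstream to the most upstream. The most downstream Kcnma1 probe, the one used, had an adjusted p of 0.0508 over all probes (limma) and did not pass there. With the mean of a gene's probes, Kcnc1, Kcnma1 and Kcnip4 did not pass. Whether these probes read different transcript forms was not tested.

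**Figure D4:**
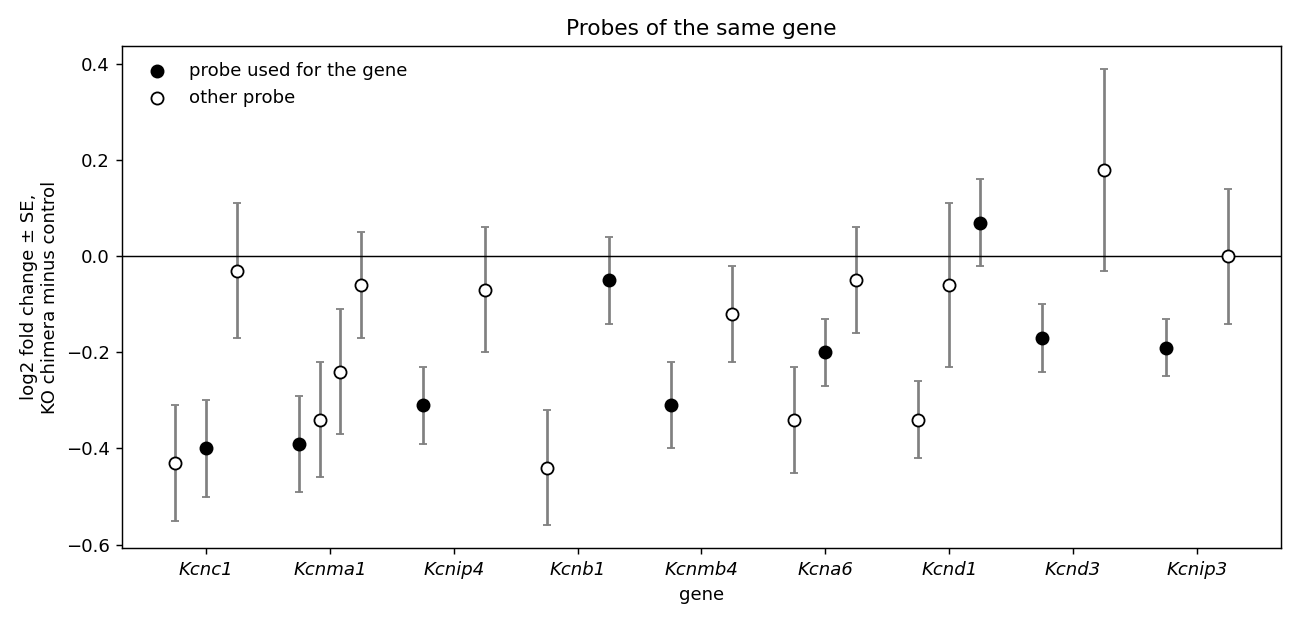
Log2 fold change ± SE (KO chimera minus control, vertical axis) of each probe kept for 9 genes with several probes (horizontal axis; filled: the probe used for the gene). Kcnc1, Kcnma1 and Kcnip4 each hold a probe near 0 beside the probe used for the gene, and Kcnd1 spans −0.34 to 0.07.

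Beside the channels, genes of potassium transport and of channel partners were read from the same fit. Over all genes 2.77% were called lower and 1.03% higher, and neither list was tested as a set. Of 16 transport genes measured, 3 fell and 1 rose. Among those that fell were Atp1b2, a sodium pump subunit typical of astrocytes (−0.35 ± 0.07, limma adjusted p = 0.016), and Slc24a2, an exchanger of sodium for calcium and potassium (−0.47 ± 0.12, adjusted p = 0.0397). The potassium chloride cotransporter Slc12a7 rose (0.64 ± 0.13, adjusted p = 0.016), whereas its neuronal relative Slc12a5 was at −0.15 ± 0.08 and did not pass. Of 17 partner proteins measured, 2 fell: Dpp10, above, and Adam22, a receptor found with Kcna channels at axons (−0.18 ± 0.05, adjusted p = 0.0364). The median log2 fold change was −0.13 over the transport genes and −0.10 over the partners.

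The calls depended on what else was in the model. With the slide as a fixed block 3 of the 81 genes passed, Kcna1 and Kcnh2 lower and Kcna3 higher, against 1.96% of all genes. With normexp background correction 1 passed, Kcna1, against 1.05% of all genes. With the thalamus score as a covariate 0 of the 81 passed, against 0.0369% of all genes. At an unadjusted p under 0.05 stood 15 of the 81 genes and 3575 of the 24362 genes in all. The values of the 7 genes then ran from −0.66 (Kcnmb2) to −0.19 (Kcnip4). With the oligodendrocyte score 0 of the 81 passed, against 0.0123% of all genes. At an unadjusted p under 0.05 stood 9 of the 81 genes and 2433 of the 24362 genes in all. Kcna1 was then at −0.32 (limma adjusted p = 0.405) and Kcnc1 at −0.08 (adjusted p = 0.831), whereas Kcnh2 was at −0.35 (adjusted p = 0.331). All 7 values stayed negative in each of these 4 fits. Without any covariate, 6 of the 7 were lower in all 5 slides with both groups, and the 7 differences ran from −0.96 to −0.30 on scan day 1 and from −0.78 to −0.27 on scan day 2, with 4 animals per group. The thalamus and oligodendrocyte scores were built from these same arrays and differed between the groups. Their means were 0.4 in control and −0.4 in KO chimeras for thalamus, and 0.15 and −0.15 for oligodendrocyte. A loss of calls in these fits therefore does not separate the score from the group. The part of any marker list in the falls, thalamus and oligodendrocyte included, was not tested. With the array's median subtracted instead of its 75th percentile, the median of all genes moved to −0.13 and that of the 81 genes to −0.21, and 20 of the 81 were called, all lower, against 17.2% of all genes. By that scaling 4.19% of the calls over all genes were higher, with normexp background correction 9.8%, and by the main scaling 27%.

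**Figure D5:**
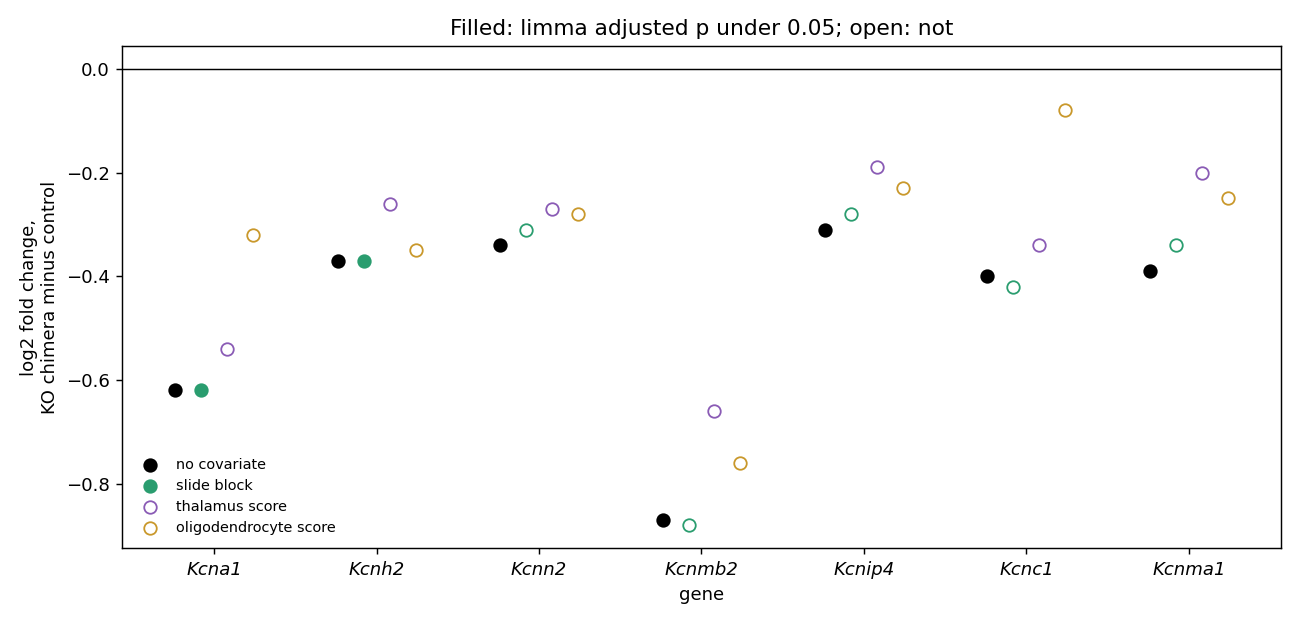
Log2 fold change (KO chimera minus control, vertical axis) of the 7 genes that passed (horizontal axis) in 4 limma models: no covariate, slide as a block, thalamus score and oligodendrocyte score (filled: adjusted p under 0.05). Kcna1 and Kcnh2 stay filled with the slide block, no gene does with either score, and no value crosses 0.

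Detection set which genes could be tested. The 17 genes with no kept probe were Kcna10, Kcne1, Kcne2, Kcne4, Kcng3, Kcng4, Kcnh6, Kcnj1, Kcnj2, Kcnk18, Kcnk5, Kcnmb3, Kcnmb4os1, Kcnn1, Kcnq1, Kcns1 and Kcnv2. Just inside the threshold lay a probe of Kcnj15, well above background on 5 control and 4 KO chimera arrays, and a probe of Kcnt1 on 5 and 3. Just outside lay 7 probes on 6 or 7 arrays, of Kcna10, Kcne2, Kcnh6, Kcnh7, Kcnmb2, Kcnrg and Kcns1. For 80 of the 81 genes the probe used was well above background on at least 4 arrays of both groups; the exception was Kcne3, on 7 control and 3 KO chimera arrays. A further 5 probes named KCNQ1ot1, in capitals, were outside the rule by name.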

How the data were processed

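Total RNA from hypothalamus of 16 mice was labelled with Cy3 and read on 1-colour Agilent arrays, 1 animal per array. The authors deposited each array's processed intensity per spot, on a linear scale with background subtracted per the file headers, and the scanner's detection flags; the version of Agilent Feature Extraction was 10.7, per the submitters' processing notes. A deposited table gives the authors' log2 values per spot and was used as an alternative; its array medians were 5.21 to 5.26, and how its arrays were aligned is unknown. Positions are in mm9, as in the files.

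Outlier and control spots were dropped, and log2 intensities, less the 75th percentile of the array's non-control probes, were averaged over the spots of a probe. A probe had to be well above background on 8 or more of 16 arrays, and the probe with the highest mean stood for its gene. Names came from RefSeq accessions (28026 probes), symbols (3418), older symbols (295) or the files (23942). The comparison used limma 3.58.1 in R 4.3.3 (lmFit, then eBayes), and p-values were adjusted over 24362 genes by Benjamini-Hochberg, at a threshold of 0.05. The script was tested on simulated data. The members, lists and tests were chosen with earlier results of these data known. Genes named with full values were those past the threshold, the member with the smallest p in each subfamily of at least 3, those whose probes differed in sign with at least 1 at an unadjusted p under 0.05, and 13 genes with well-known roles in brain; others named were chosen after their values were seen. A few members that this rule names are left unreported. The arrays lay on 6 slides, 5 with both groups, and were scanned on 2 days. Slides 4 and 5 held 1 animal of each group. Figures were drawn with matplotlib 3.10.9 in Python 3.11.15.

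Replicate numbers are shared between the groups. The correlation of deviations within the 8 same-numbered pairs ran from −0.07 to 0.24, so the numbers were not taken to pair animals.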

Additional observations from a re-analysis of the deposited data

Results flagged for a closer look

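In 4 of the 44 sets of 8 animals examined (22 named genes, 2 groups each), 1 animal lay far from the other 7, by Dixon's ratio of the gap to the nearest animal over the whole range, above its critical value for 8 values. Chance gives such a gap in about 1 of 20 sets. Kcnab1 was high in control replicate 3 (3.36, next 2.54; ratio 0.60). Kcnn2 was high in KO chimera replicate 7 (0.88, next 0.73; ratio 0.59), and Kcnq3 in KO chimera replicate 6 (−2.33, next −2.52; ratio 0.59). Kcnip3 was low in KO chimera replicate 1 (3.54, next 3.78; ratio 0.67).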

How the results depend on the processing

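Every one of the 7 called genes kept its negative sign under all 19 alternative fits and with each of the 16 animals left out. Against 7 potassium channel genes and 925 genes in all, normexp background correction gave 1 and 255, quantile normalization 4 and 534, the authors' deposited values 4 and 535, the array's median subtracted 20 and 4200, no filter on dim probes 4 and 594, and the slide as a fixed block 3 and 477. Within scan day 1 limma called 0 and 0 (17 and 2838 at an unadjusted p under 0.05). Within scan day 2 it called 0 and 7 (16 and 3432 at an unadjusted p under 0.05). It called 0 and 9 with the thalamus score, 0 and 3 with the oligodendrocyte score, and 14 and 2014 at a threshold of 0.1. Detection on all 16 arrays gave 11 potassium channel genes and 1244 genes in all, out of 18338 tested. The mean of a gene's probes gave 4 and 750. With the replicate block 10 were called, of which 6 were among the 7 (Kcnc1 was lost), and 791 in all; an animal's own number was its best partner in 3 of 8 pairs. With an animal left out, 3 to 8 potassium channel genes and 361 to 1028 genes were called; the channel count was 3 or 4 on leaving out control replicate 1, 5 or 7, or KO chimera replicate 2, 4, 6 or 7. The median log2 fold change of the channel genes was −0.09 and stayed at −0.10 to −0.03, with 2 exceptions. It was −0.12 with detection on all 16 arrays and −0.21 with the array's median subtracted. Among the 15 named genes that did not pass, signs changed for Kcnd1 (−0.05 with the array's median subtracted, −0.11 by the mean of probes) and Kcnd3 (0.01, mean of probes). They also changed for Kcna2 (0.00 within day 2, 0.10 with the oligodendrocyte score), Kcnj10 (0.06, oligodendrocyte score) and Kcnq3 (0.04 and 0.21 with the thalamus and oligodendrocyte scores). Kcnj3 turned to 0.03 (mean of probes, slide block, and without control replicate 7, in a range of −0.16 to 0.03 with an animal left out), 0.02 (day 1), 0.24 (thalamus score) and 0.32 (oligodendrocyte score). Kcnj8 turned to −0.12 (quantile), −0.08 (array's median), −0.13 (deposited table), −0.33 (day 2), −0.09 (array weights), and −0.09 and −0.03 without KO chimera replicate 1 or 2 (−0.09 to 0.15 with an animal left out). Kcnk2 turned to −0.03 (array's median) and −0.01 (day 1). The cause of these changes was not tested. Probes near background, such as those of Kcnj8, Kcnab2 and Kcnmb1 and the second Kcnmb2 probe, limit what can be said of those genes.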
